A study of Mus musculus with 4 samples.

Results

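The secreted phospholipase A2 genes were examined in the small intestine of 2 HNF4 null mice and 2 control mice, as labelled. Members were all probe sets whose platform annotation named exactly 1 of 10 symbols: Pla2g2a, Pla2g2c, Pla2g2d, Pla2g2e, Pla2g2f, Pla2g5, Pla2g10, Pla2g1b, Pla2g12a and Pla2g12b. This gave 15 probe sets among 22626 that were not array controls, and every one of the 10 genes had at least 1. By gene, they are 10 of the 12393 with a probe set of their own. The family was chosen by the null against control values of these same arrays, in which Pla2g2a was known to stand apart. Null minus control values of its members are therefore given as a description, with no test.

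Secreted phospholipases A2 are small calcium-dependent enzymes that leave the cell and cleave the middle acyl chain from phospholipids, releasing a fatty acid and a lysophospholipid. The fatty acid can feed prostaglandin and leukotriene synthesis, and some members kill bacteria by attacking their membranes. In the gut the family is known for Pla2g2a, an antibacterial product of Paneth cells at the crypt base, and for Pla2g1b, which the pancreas secretes to digest dietary phospholipid. Pla2g2a is also known as Mom1, a modifier of intestinal tumour number in mice, and is disrupted in several common inbred strains. The gene table used here, made from the C57BL/6J strain, lists it as a transcribed pseudogene under the synonym Mom1. Apart from the HNF4 alleles and Cre, the labels give no strain background for any of the 4 animals.

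Each group held 1 male and 1 female. Per the labels, the null animals were HNF4 loxP/- with villin Cre, a recombinase whose promoter is active in intestinal epithelium. The control female was loxP/+ with the same Cre, and the control male was loxP/- with no Cre. A loxP allele was therefore common to all 4, and Cre and the minus allele were each present in 1 control. Null and control males thus differed in Cre, and null and control females in the second HNF4 allele. Comparisons of null with control within each sex, given below, are therefore of unlike genotypes as well as of unlike sex. All were 1 month old. The labels leave unstated the HNF4 paralogue, the gut segment and any shared litter, and p-values measure only the spread between these few arrays.

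Total RNA was measured on 1 Affymetrix array per animal, and the deposited values are linear intensities, 1 per probe set. Array medians ran from 43.2 to 53.3, and the null male had the lowest median and the lowest correlations with the other arrays (0.927 to 0.946, across probe sets). Xist and the Y-linked Eif2s3y matched the labelled sex of every animal. The 4 Hnf4a probe sets had null minus control log2 differences of 0.08 to 0.32, and since the sources used here do not name the deleted part of the gene, they do not check the null labels. Enterocyte markers such as villin, Vil1, were bright on every array, with deposited intensities of 1971 and 1343 in the null male and female and 2021 and 2335 in the control male and female.

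The promoter windows of 2 members are shown first, because Pla2g12b has been described in mouse liver as a target of HNF4-alpha and Pla2g2e was the member with the largest positive difference here. RefSeq windows of GRCm38.p6, from 250 bases before to 50 after a gene start, were matched by symbol for 9 of the 10 genes, 10 windows in all, and none was matched for Pla2g2a, whose promoter was therefore not searched. They were searched on both strands for AAAGTCCA, core letters of the site that HNF4 proteins prefer, a motif picked after the sequences had been seen. In the lines below, capitals mark a match, on the gene's own strand, 5′ to 3′. The windows lie at chr10:59403435-59403734 for Pla2g12b and at chr4:138877692-138877991 for Pla2g2e, both on the plus strand.
Pla2g12b: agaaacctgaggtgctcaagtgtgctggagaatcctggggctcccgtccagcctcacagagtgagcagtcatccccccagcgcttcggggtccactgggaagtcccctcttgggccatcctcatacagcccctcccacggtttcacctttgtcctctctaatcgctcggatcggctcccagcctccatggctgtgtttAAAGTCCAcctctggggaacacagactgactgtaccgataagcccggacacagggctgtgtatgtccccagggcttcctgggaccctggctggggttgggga
Pla2g2e: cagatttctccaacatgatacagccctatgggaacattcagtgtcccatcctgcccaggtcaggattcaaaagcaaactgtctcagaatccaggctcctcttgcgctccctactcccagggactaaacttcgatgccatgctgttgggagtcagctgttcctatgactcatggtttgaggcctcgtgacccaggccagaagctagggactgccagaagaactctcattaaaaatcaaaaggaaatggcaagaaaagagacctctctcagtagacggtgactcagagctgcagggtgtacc
The letters stood on the forward strand of the Pla2g12b window and on the reverse strand of 1 of the 2 Pla2g5 windows, and in none of the other 8 windows of these genes. Over all 32851 windows of the same length, 1.25% held them. A match describes letters only, and its absence from a window says nothing about binding.

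Pla2g2a was the member furthest below its controls. Its probe set, 1450128_at, had deposited intensities of 292 and 550.4 in the null male and female, against 5767 and 4907 in the control male and female. Paired values here and below give the male before the female of each group. The 2 groups were far apart, and the null animals differed more from each other than the controls did. On the scale of log2(intensity + 16) after quantile normalization, used for all differences below, it averaged 8.76 ± 0.57 in null and 12.38 ± 0.16 in control animals (SD, n = 2 each). The difference was −3.63 (SE 0.26, 95% interval −4.24 to −3.01), a 12.4-fold lower level in the null animals. Between the 2 males, called the male pair below, it was −4.15, and between the 2 females, the female pair, −3.11. Among all 15838 probe sets bright enough to test, 1 had a larger absolute difference and none a more negative one. In bulk tissue, fewer cells of a type and less RNA per cell cannot be told apart. The labels give no strain background, and any part of a disrupted Pla2g2a allele in this difference was not tested.

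**Figure D1:**
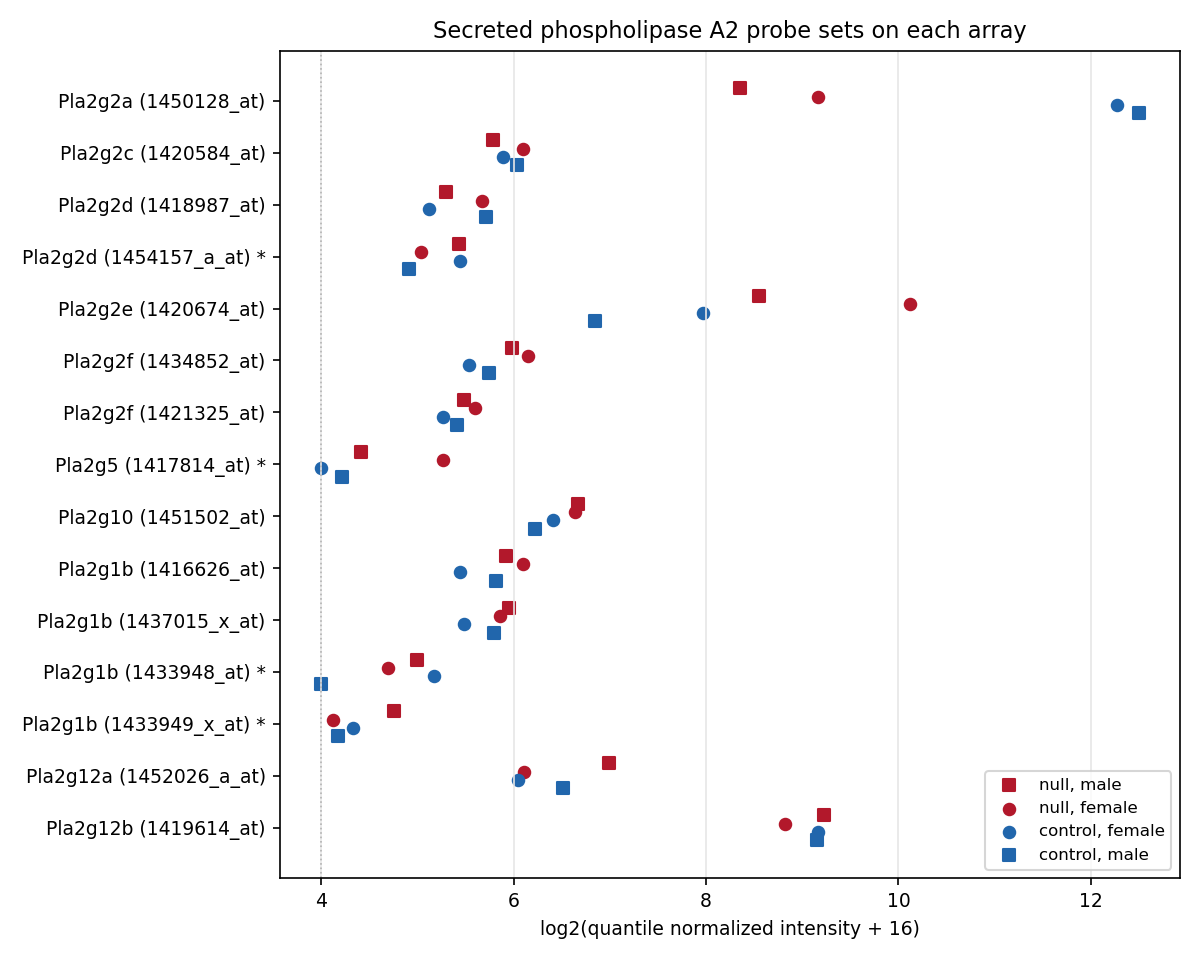
Each of the 15 probe sets (rows) on each of the 4 arrays, as log2 of quantile normalized intensity plus 16; red marks null and blue control animals, squares males and circles females, and an asterisk marks a probe set too dim to test. The dotted line at 4 is an intensity of 0. Pla2g2a lies at 8.35 and 9.16 in null animals and at 12.50 and 12.27 in controls, and Pla2g2e is the other member with widely spaced arrays.

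Pla2g2e, a group II enzyme described in mouse skin and adipose tissue, lay on the other side of its controls. Its probe set, 1420674_at, read 338 and 1082 in the null male and female, against 100.3 and 242 in the control male and female. Both null animals were above both controls, but the male null animal was close to the female control. The log2 averages were 9.33 ± 1.11 in null and 7.41 ± 0.79 in control animals (SD, n = 2 each), with a difference of 1.92 (SE 0.56, 95% interval 0.59 to 3.26), which is 3.8-fold. Its standard error was larger than that of 98.9% of the probe sets tested. Within sexes it was 1.70 for the male pair and 2.15 for the female pair, so the wide error over the 4 arrays lay alongside a gap between males and females in both groups.

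That gap could be tested, since males against females is a contrast that did not choose the members. With group as a block, limma called 84 of 15838 probe sets, 0.53%, at an adjusted p under 0.05, and 1 of the 11 members bright enough to test was among them. It was Pla2g2e, which was lower in males by a log2 difference of −1.35 (SE 0.19, 95% interval −1.77 to −0.92), which is 2.54-fold (adjusted p = 0.0124 in limma). The male was lower in both groups, by −1.57 between the null animals and −1.12 between the controls. With no intensity trend in the prior variance, the call was lost (adjusted p = 0.453 in limma) and only 3 probe sets were called in all. Of the 84 called with the trend, 6 lay on chromosome X or Y, and 10 had no chromosome in the gene table. The labels number the 2 males consecutively and the 2 females likewise, and whatever that shared numbering may stand for cannot be told apart from sex. Between the controls, sex also cannot be told apart from genotype, since the female was loxP/+ with Cre and the male loxP/- with no Cre. The same fit rests on 1 animal for each sex and group.

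None of the other 10 members tested passed in males against females. Their adjusted p ran from 0.489 to 0.993 in limma. Pla2g12a had the next largest size, 0.68 higher in males (95% interval 0.09 to 1.27, adjusted p = 0.489). For Pla2g2a the interval, from −0.73 to 0.15 around a difference of −0.29, was small beside its null minus control difference.

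**Figure D2:**
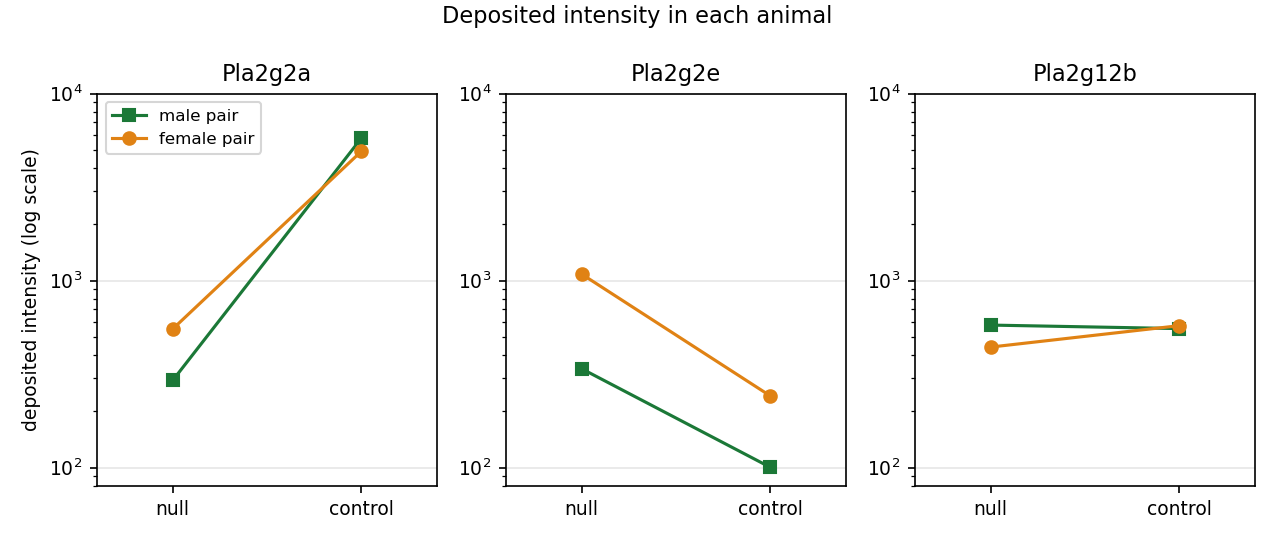
Deposited intensity, on a log scale, of Pla2g2a, Pla2g2e and Pla2g12b in null and control animals, with a line joining the 2 animals of each sex (green squares male, orange circles female). Pla2g2a falls below its control in both pairs, Pla2g2e lies above its control in both with the female above the male each time, and Pla2g12b stays between 441 and 578.

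Pla2g12b, an inactive relative that takes part in lipoprotein secretion in mouse liver and intestine, was bright and close to its controls. Its intensities were 578 and 441 in the null male and female, against 553 and 574 in the control male and female. The lowest of the 4 was a null animal, and so was the highest, so the groups overlapped. The log2 averages were 9.03 ± 0.29 and 9.16 ± 0.01 in null and control animals (SD, n = 2 each), with a difference of −0.13 (−0.135 before rounding; SE 0.19) and a 95% interval from −0.59 to 0.32. A log2 change beyond those bounds lay outside the interval, and the pairs had opposite signs, 0.07 in males and −0.34 in females.

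Pla2g12a, the broadly expressed group XII enzyme, read 100.3 and 57.4 in the null male and female, against 76.3 and 51.0 in the control male and female. The groups overlapped, with the male above the female in each. Its difference was 0.27 (SE 0.35), 0.48 in the male and 0.07 in the female pair.

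Pla2g10, an efficient enzyme on phosphatidylcholine that is found in mouse colon and stomach, read 76.8 and 89.8 in the null male and female, against 59.6 and 70.7 in the control male and female. Both null animals were above both controls by a small margin. The difference was 0.33 (SE 0.22, 95% interval −0.19 to 0.86), with 0.44 in the male and 0.23 in the female pair. Of 12 listed markers of colon and caecum, 5 were tested, with Car4 at 351 and 32.9 in the null animals and 606 and 437 in the controls, male before female. The colon list's median difference was −0.35, with −0.68 between males and 0.17 between females, and its part in the Pla2g10 values was not tested.

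Pla2g1b, the pancreatic digestive enzyme, was represented by 4 probe sets, none of them bright. The brightest, 1416626_at, read 39.2 and 56.8 in the null male and female, against 40.9 and 28.3 in the control male and female. After normalization both null animals were above both controls, although the deposited intensities overlapped, with a difference of 0.38 (SE 0.26), and 1437015_x_at gave 0.27 (SE 0.25). The suffix x marks probe sets with probes that may match other transcripts. The remaining 2 were among the dimmest 30% of probe sets and had intensities of 0.635 to 20.6. Markers of pancreatic acinar cells were uneven in signal. Clps, at 742 to 1416 over the arrays, Pnliprp2 and Cpa1 were the brightest and made up most of the sum below. Others were far dimmer, such as Ctrb1 at 42.8 to 61.2, and some were too dim to test. Over the 18 of 25 listed markers with a probe set, the summed normalized intensity was 3854 and 2208 in the null animals and 3313 and 2189 in the controls, male before female, higher in the male of each group. Their part in the Pla2g1b values was not tested.

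The remaining group II and V members ran from the dim end to the middle of the arrays. By mean log2 value, Pla2g5 was at percentile 2.5 of all probe sets and Pla2g2c at 48.5. As a yardstick, 6 probe sets of the Y-linked genes Eif2s3y, Kdm5d and Uty read from −2.23 to 34.4 in the 2 females, which lack these genes. Probe sets differ in background, so this range is no detection limit. Pla2g5, known from heart and macrophages, stayed within it on all 4 arrays, at 2.64 and 25.4 in the null male and female and 2.95 and −0.590 in the control male and female, and was too dim to test. Both Pla2g2d probe sets, for an enzyme of mouse dendritic cells, had arrays within the range, with intensities of 14.6 to 38.6 overall. The brighter differed by 0.07 (SE 0.31), with −0.42 in males and 0.56 in females.

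Pla2g2c, described in mouse testis, read 34.3 and 56.9 in the null male and female, against 50.2 and 44.1 in the control male and female. The groups overlapped, and the difference was −0.02 (SE 0.24). Pla2g2f, known from mouse epidermis, had 1 probe set at 41.6 and 59.3 in the null male and female, against 37.9 and 31.0 in the control male and female. Both null animals were above both controls, by 0.43 (SE 0.24, 95% interval −0.14 to 1.00). The other Pla2g2f probe set gave 0.20 (SE 0.25). It was dimmer, at deposited intensities of 23.1 to 35.7, which overlapped between the groups before normalization. Cells in which such members are known were followed by marker lists. For macrophages 8 of 14 markers were tested, with a median of 0.16 and a summed intensity of 4152 to 4209 in null animals and 4031 to 4416 in controls. Most of that sum was Lyz2, which read 2575 to 3299 over the arrays and had a difference of −0.17. For dendritic cells 4 of 10 were tested, with a median of −0.01 and sums of 214 to 215 in null animals and 190.95 to 222 in controls. For mast cells 8 of 14 were tested, with a median of 0.09 and sums of 419 to 477 in null animals and 371 to 380 (379.8) in controls. Mcpt2, a mast cell protease, stood at 1.20 (SE 0.38), with 0.65 in the male and 1.76 in the female pair. The monocyte receptor gene Cd14 stood at 0.83 (SE 0.40), with 0.17 in the male and 1.49 in the female pair. Hdc, another mast cell marker, was at −0.34 (SE 0.22). Of the 8 tested in the macrophage list, and likewise in the mast cell list, 6 were higher and 2 lower. The part of these cells in the values of the group II and V members was not tested.

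**Figure D3:**
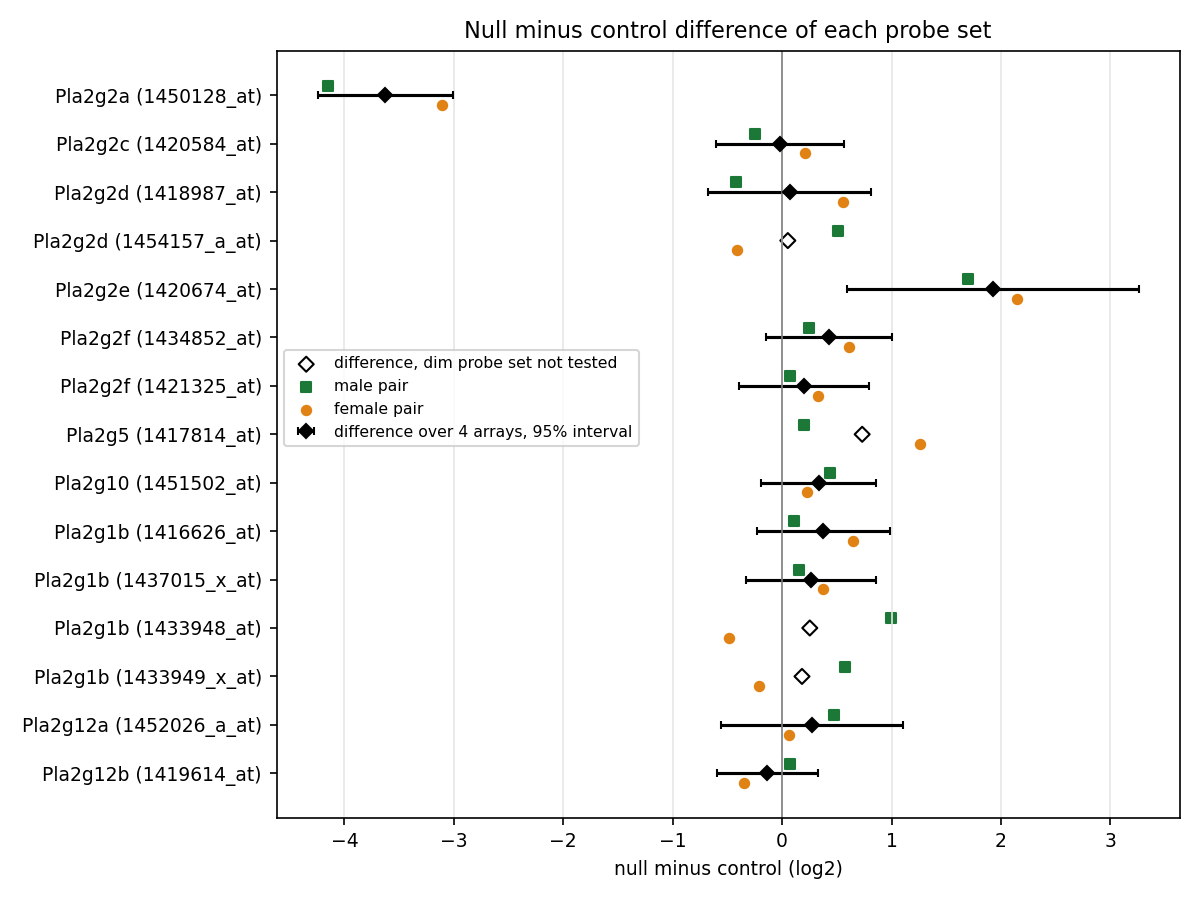
Null minus control difference (log2) of each probe set over the 4 arrays, with the 95% interval from the fit where the probe set was tested (black diamonds) and none where it was too dim (open diamonds). Green squares give the male pair and orange circles the female pair. Pla2g2a, at −3.63, and Pla2g2e, at 1.92, lie furthest from 0 of the 15.

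The filter on dim probe sets kept those with a mean log2 value of at least 5.40, and 11 of the 15 members passed, covering 9 of the 10 genes. Just inside it were Pla2g2f 1421325_at at 5.44 and Pla2g2d 1418987_at at 5.45, and just outside Pla2g2d 1454157_a_at at 5.21. Over all probe sets tested, limma called 2 in null against control, 0.0126%, and 29, 0.183%, with sex as a block. The null and control arrays did not overlap in 7 of the 11, with 6 higher and 1 lower, against 29.8% of all probe sets tested. This contrast led to the family, so nothing is read from the members' count and their calls are not used. The Pla2g2a difference lay between −4.06 and −3.20 whichever array was left out.

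Pla2g2a was set beside other products of Paneth cells, the secretory cells in which it is best known. Of 27 listed Paneth cell markers, 9 had a probe set with a single gene and 8 were tested. Of the 7 other than Pla2g2a none was called without a block, and Reg3g and Mmp7, both higher in null animals, were called with sex as a block (adjusted p = 0.00042 and 0.0127 in limma). The list was chosen with earlier results of these arrays known, so these p-values are given as a description only. Lyz1, the Paneth cell lysozyme, read 6824 and 6723 in null animals, against 7870 and 8002 in controls, a difference of −0.21 (SE 0.08). Itln1, a lectin of the same cells, read 6040 (6039.85 before rounding) and 5793 in null animals, against 4830 (4829.66) and 4976 in controls, a difference of 0.26 (SE 0.08). Both stayed among the bright probe sets on all 4 arrays.

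The matrix protease Mmp7 was at 1.22 (SE 0.21), the bactericidal lectin Reg3g at 1.23 (SE 0.30) and its relative Reg3a at −0.78 (SE 0.21), each with the same sign in both pairs. Reg3g was also lower in males by −0.73 (adjusted p = 0.00754 in limma). The median of the 7 markers tested other than Pla2g2a was 0.26, with 5 higher and 2 lower, and that of all 9546 genes tested was 0.00. Summed over the 8 markers other than Pla2g2a with a probe set, normalized intensity was 20259 and 22757 in the null male and female, against 16880 (16879.5) and 18550 (18550.4 before rounding) in the control male and female. Reg3g, at 4562 and 7228 in null animals, against 1881 and 3178 in controls, made up most of that gap. Without it the sums of the other 7 were 15800.1 and 15581 in null animals, against 15047 and 15402 in controls. Lyz1 and Itln1, whose differences had opposite signs, made up most of these sums. Defa3, the only listed defensin with a probe set of its own, read 2.85 to 20.4 and was too dim to test. Of other epithelial lists, goblet cell markers had a median of 0.37, with 10 of 11 higher, and enterocyte markers one of −0.14, with 10 of 13 lower. Smooth muscle markers stood at 0.25 over the 4 arrays, but at −0.23 between males and 0.68 between females, and 3 of the 10 tested had one sign in both pairs.

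Beyond the family, the medians of the pathway lists were near 0, over genes that lay on both sides of it, and none of these genes was called with or without sex as a block. The lists were chosen with earlier results of these arrays known. Of the other phospholipases A2 and the receptor Pla2r1, 13 of 23 were tested, with 8 higher and 5 lower, 0 called and a median of 0.02. The calcium-independent enzyme gene Pla2g6 was at −0.27 (SE 0.22), and the triglyceride lipase gene Pnpla2 at 0.16 (SE 0.20). Of 25 eicosanoid synthesis genes, 16 were tested, with 9 higher, 7 lower, 0 called and a median of 0.03. Ptgr1, which breaks down prostaglandins and leukotriene B4, was at −0.57 (SE 0.23), and read 1175 and 789 in null animals, against 1722 and 1250.3 in controls. Cbr1, a carbonyl reductase, was at −0.48 (SE 0.22), the prostaglandin E synthase gene Ptges at 0.47 (SE 0.21) and Alox5ap, the 5-lipoxygenase activating protein gene, at 0.94 (SE 0.48), the mean of 0.02 between males and 1.87 between females.

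Of 22 receptors for eicosanoids and lysophospholipids, 17 had a probe set and 9 were bright enough to test, with 6 higher, 3 lower and 0 called, at a median of 0.07. Ptgdr2, a prostaglandin D2 receptor gene, was at 0.53 (SE 0.37) and the lysophosphatidic acid receptor gene Lpar1 at −0.19 (SE 0.20). Of 26 genes that handle lysophospholipids or remodel phospholipids, 18 were tested, with 10 higher, 8 lower, 0 called and a median of 0.03. Abhd12, a lysophosphatidylserine lipase, had the largest difference of one sign in both pairs, −0.73 (SE 0.23), with 81.3 and 134 in null animals, against 195 and 186 in controls. Lclat1, a lysocardiolipin acyltransferase, was at 0.35 (SE 0.20).

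**Figure D4:**
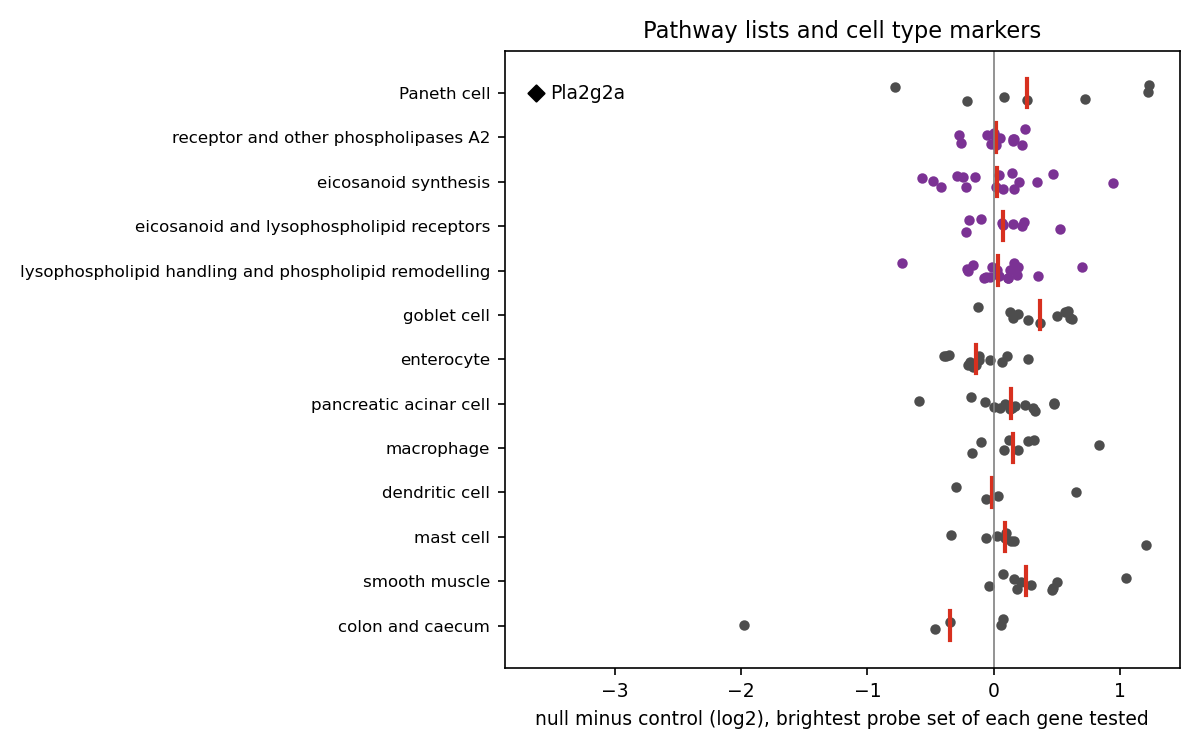
Null minus control difference (log2) of each gene tested, by its brightest probe set, for the pathway lists (purple) and cell type markers (grey), with the median of each list in red. The black diamond is Pla2g2a at −3.63, which the Paneth cell median of 0.26 leaves out. The pathway medians lie between 0.02 and 0.07.

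Pla2g2c, Pla2g2f, Pla2g2d, Pla2g5, Pla2g2a and Pla2g2e are neighbours on chromosome 4, in that order in the gene table, where Pla2g2a lies within the annotated span of Pla2g5. The largest negative and the largest positive difference of the family thus belonged to adjacent genes among those with a probe set. Of the nearest 15 genes with a probe set on each side, 25 of 30 were tested, with 10 higher and 15 lower, and none was called or differed by 2-fold or more. Their median was −0.02 and their range −0.30 to 0.79. Places here count only genes with a probe set. Rap1gap, a GTPase activator in place 11 before the cluster, was the highest at 0.79 (SE 0.22). Rnf186, a ubiquitin ligase and the next such gene after Pla2g2e, was at 0.61 (SE 0.28) with 0.12 between males and 1.09 between females.

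The pancreatic elastase gene Cela3b (0.48, SE 0.23) and the mitochondrial kinase gene Pink1 (−0.20, SE 0.21) were the next largest of one sign in both pairs among the neighbours tested. On the whole of chromosome 4, 5 of 895 probe sets tested, 0.559%, were 2-fold apart or more in one direction across both pairs, against 100 (0.631%) of all probe sets tested. Pla2g2a and Pla2g2e were among the 5, and none of the other 3, Fam151a, Uts2 and Olfr157, which are named after their values were seen, was among these neighbours.

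**Figure D5:**
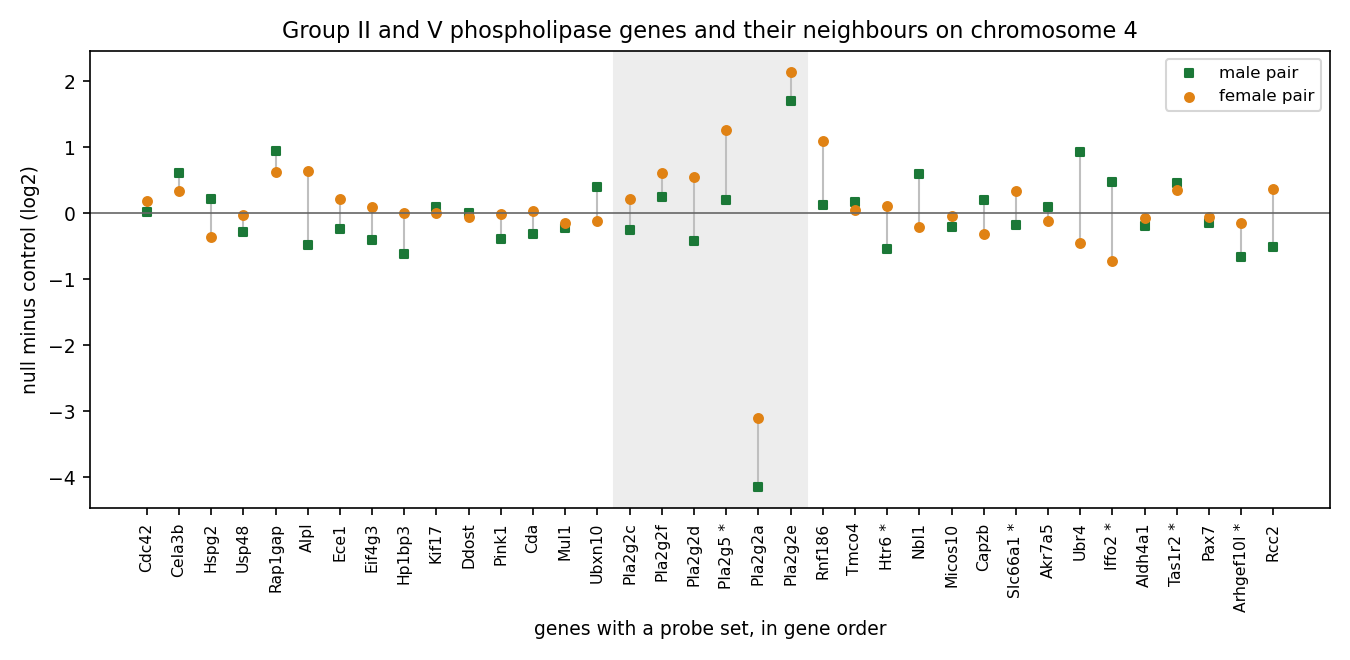
Null minus control difference (log2) in the male pair (green squares) and female pair (orange circles) for the 6 cluster genes (shaded) and the nearest 15 genes with a probe set on each side, in gene order and not to scale; an asterisk marks a gene too dim to test. Pla2g2a, at −4.15 and −3.11, and Pla2g2e, at 1.70 and 2.15, stand apart from neighbours whose differences over the 4 arrays lie between −0.30 and 0.79 where tested.

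Profiles most like those of the 2 members were found by Euclidean distance over the 4 log2 values, each profile centred on its own mean, as a description over these 4 arrays alone. Nearest to Pla2g2a were an immunoglobulin kappa segment (1452536_s_at, distance 1.47), with 12.3 and 55.3 in null animals, against 325 and 142 in controls, the neurotensin gene Nts (2.02), the alcohol dehydrogenase gene Adh4 (2.25), the cubilin gene Cubn (2.27) and the peroxisomal thiolase gene Acaa1b (2.30). All were smaller differences, from −2.32 to −1.34. Nearest to Pla2g2e were the adenylate cyclase gene Adcy4 (0.66), with 211 and 601 in null animals, against 88.2 and 109 in controls, the calcium-binding protein gene S100g (0.71), the serine synthesis gene Phgdh (0.87), Tifa (0.90) and Gga2 (0.90). Like Pla2g2e, each of these 5 was highest in the null female and lowest in the control male, which their choice by distance favoured. For scale, a profile flat over the 4 arrays would lie 3.68 from Pla2g2a and 2.36 from Pla2g2e.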

How the data were processed

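Per the labels, a Qiagen RNeasy mini kit gave the RNA, which was labelled with biotin by the usual Affymetrix procedure. The deposited table holds 1 linear intensity per probe set and array, and the sources used here do not give the software, background correction or scaling behind it, so single values carry no known precision. Quantile normalization between arrays was followed by a floor at 0 and log2 of the value plus 16, a scale that understates changes at low signal. After the dimmest 30% of 22626 probe sets had been removed, 15838 were fitted with limma 3.58.1 (R 4.3.3), using lmFit, then eBayes with a trend, two-sided, with Benjamini-Hochberg adjustment and a threshold of 0.05. The null against control fit had no covariate, and the male against female fit had group as a block. A gene outside the family was represented by its brightest probe set. From each list and from the chromosome neighbours, up to 4 genes with the largest difference of one sign in both pairs could be named, with Lyz1 and Itln1 added after their values were seen. Names came from the platform annotation, and gene order from a GRCm38.p6 gene table. Members, lists and tests were chosen with earlier results of these data known. Alternatives changed the normalization, pseudocount, filter, prior trend and sex block, and left out each array in turn.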

Additional observations from a re-analysis of the deposited data

Results flagged for a closer look

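In 6 of the 15 probe sets, the null minus control difference between males was opposite in sign to that between females. With 1 animal for each sex and group, the difference between pairs was not tested, and 51.6% of all probe sets tested had opposite signs. They were Pla2g2c (−0.25 in the male pair, 0.21 in the female pair), Pla2g2d 1418987_at (−0.42 and 0.56, male before female), Pla2g2d 1454157_a_at (0.51 and −0.41), Pla2g1b 1433948_at (0.99 and −0.49), Pla2g1b 1433949_x_at (0.57 and −0.21) and Pla2g12b (0.075 and −0.34). The Pla2g2d probe sets had opposite signs from each other in both pairs.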

How the results depend on the processing

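The number of probe sets called in null against control was 2, and it was 1 with no trend in the prior, 29 with sex as a block and 0 to 35 leaving out 1 array at a time. In males against females it was 84, and 183 with no normalization, 168 with no filter and 3 with no trend. The labels give the groups no shared replicate numbers, so the only paired fit was that with sex as a block. The Pla2g2a difference of −3.63 was −4.06 to −3.20 leaving out 1 array and −3.68 to −3.48 under the other settings, and that of Pla2g2e (1.92) was 1.15 to 2.68 and 1.66 to 2.03. The Pla2g2e sex difference was −1.42 to −1.17 and kept its call except with no trend in the prior, where −1.35 had an adjusted p of 0.453 in limma. Leaving out 1 array, medians were −0.072 to 0.072 for other phospholipases A2, −0.085 to 0.26 for eicosanoid synthesis, 0.0078 to 0.16 for receptors, −0.052 to 0.13 for remodelling and −0.080 to 0.011 for the chromosome neighbours. Of 156 null minus control values of the other 13 probe sets, 146 moved by less than 1 SD, 10 of them with a change of sign, and 10 moved by more with the sign kept, such as Pla2g5 from 0.73 to 2.69 with a pseudocount of 1. The filter, the prior trend and the sex block cannot change a difference. Leaving out 1 of the 2 arrays of a group can move it by little more than 1 SD. Most of the 146 were therefore fixed by the settings themselves and say little about stability. Of 64 male minus female values, 59 kept their direction and none was called. With no normalization that difference turned to −0.021 for Pla2g2d 1418987_at, −0.093 and −0.11 for Pla2g2f and −0.020 for Pla2g1b 1416626_at, and with median scaling to −0.0042 for Pla2g2f 1421325_at. Dim signal limits Pla2g5, Pla2g2d, Pla2g1b and Pla2g2f.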
